A study of Saccharomyces cerevisiae with 9 samples.

Results

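RNA levels in 6 libraries of budding yeast (Saccharomyces cerevisiae) with a blocked Kennedy pathway were compared, as a pool, with 3 wild-type (WT) libraries. The pool holds 3 libraries of the strain deleted for ECT1 and PCT1 (ect1Δ pct1Δ) and 3 of the strain deleted for CPT1 and EPT1 (cpt1Δ ept1Δ), and each strain carried the same weight in the average. All 9 libraries of the study were used. All strains are prototrophic CEN.PK cells, that is, laboratory yeast able to make its own amino acids and bases, and all were grown to log phase in minimal synthetic medium with 2% glucose, washed and frozen. Genes were taken as moved when the pooled change passed edgeR's test and the strains' own changes had the same sign, and the 4 deleted genes were left out. This gave 20 genes of 6079 tested.

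The Kennedy pathway builds the membrane lipids phosphatidylethanolamine and phosphatidylcholine from free ethanolamine and choline: a kinase phosphorylates the base, Ect1 (ethanolamine) or Pct1 (choline) activates it with CTP, and Ept1 or Cpt1 joins it to diacylglycerol. The strains therefore lack different steps of the same branches, ect1Δ pct1Δ the activation step and cpt1Δ ept1Δ the last step. Yeast can also make both lipids through the CDP-diacylglycerol route, in which phosphatidylserine is made by Cho1, decarboxylated by Psd1 or Psd2 and methylated by Cho2 and Opi3, so cells without the Kennedy pathway grow in medium without choline.

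The libraries held 5669951 to 11793688 counts. The deleted genes checked the labels: ECT1 had 0 to 2 counts and PCT1 5 to 11 in the ect1Δ pct1Δ libraries, and EPT1 had 0 to 4 and CPT1 2 to 5 in the cpt1Δ ept1Δ libraries, against 645 to 2502 for the 4 genes in WT. The design text of the series names PAH1 and DGK1 in place of these, but the pooled log2 fold changes of those genes were -0.09 and 0.02. Summed MATa marker RNA was 1721 to 1875 CPM (each gene's count scaled to a common library total) and MATalpha marker RNA 45.8 to 53.4 CPM over all libraries, and the 7 prototrophy genes summed to 5624 to 6060 CPM. On the largest axis of variation, 23.0% of the variance, the libraries farthest from the centre were WT replicate 3 (13.0) and replicates 1 (-9.66) and 2 (7.33) of ect1Δ pct1Δ, on either side, and counts of genes without them are given with the main count. Whether replicates came from separate cultures is not said in the labels, so the p-values cover the spread of these libraries only. In bulk RNA, fewer cells in a state and less RNA per cell cannot be told apart.

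The pooled comparison moved few genes, and most of them by little. Of 6079 genes, 22 passed the test at an adjusted p below 0.05 (0.362%). Of these, 20 had the same sign in both strains (0.329%), 15 higher than WT (0.247% of all genes were higher by the test) and 5 lower. The other 2, ARR3 and YBR242W, were lower in ect1Δ pct1Δ alone. Only YDL057W changed at least 2-fold, 4 genes changed at least 1.5-fold (YDL057W, YGR201C, ZRT1 and RDN5-1), and 16 changed by less. The median pooled log2 fold change over all genes was -0.00055, and 98.96% of genes lay within 1.5-fold of WT. Among the 20 genes, the WT level per length ran from 5.93 ± 1.59 FPKM (SD, n = 3) for YDL057W to 2952 ± 63.6 FPKM for the cell wall gene CWP2.

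In 17 of the 20 genes the 6 deletion libraries lay entirely on one side of the 3 WT libraries, against 188 of all genes (3.09%). The test and this count use the same values, so the second does not support the first. The 3 genes with overlapping libraries were YGR201C, TDH1 and STF2. Leaving out single libraries in turn gave 14 to 26 genes moved the same way. The number of higher genes fell to 9 without WT replicate 1. The number of lower genes was 3 without WT replicate 2, ect1Δ pct1Δ replicate 1, cpt1Δ ept1Δ replicate 2 or cpt1Δ ept1Δ replicate 3, and 8 without WT replicate 3. Without both WT replicate 3 and ect1Δ pct1Δ replicate 2, 30 genes moved the same way, 16 of them among the 20, and without WT replicate 3 and ect1Δ pct1Δ replicate 1 it was 31, 13 of them among the 20.

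**Figure D1:**
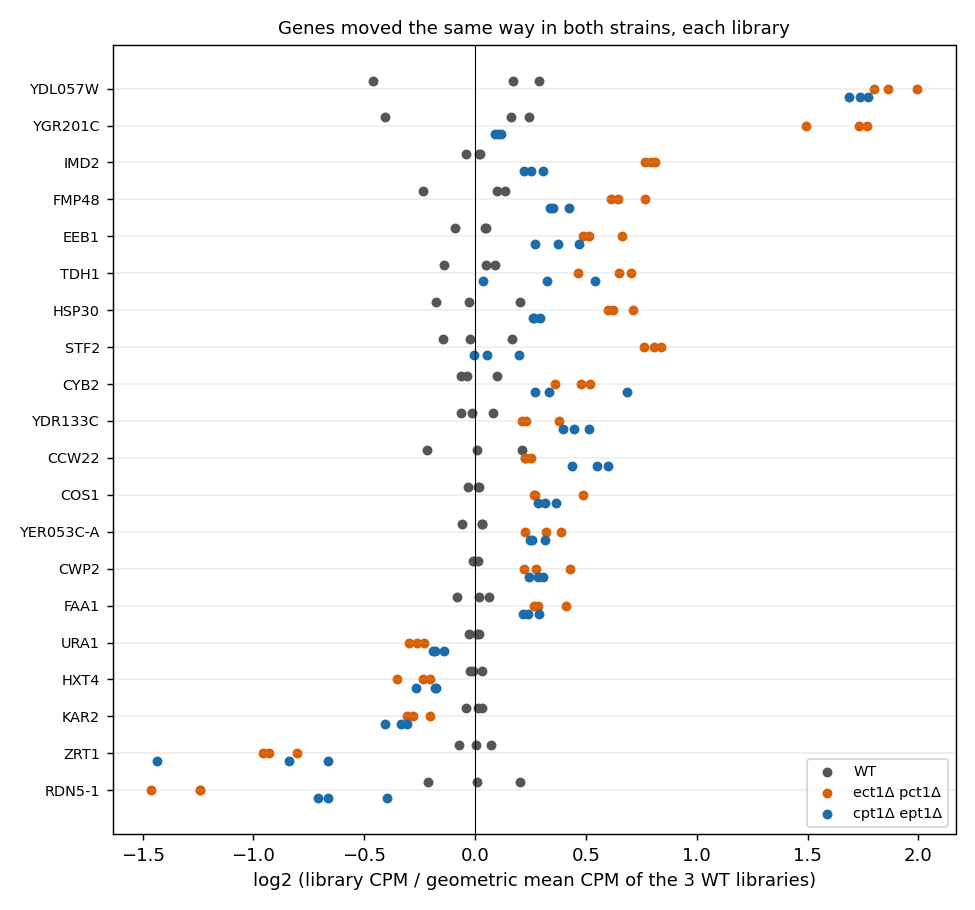
Log2 ratio of each library's CPM to the geometric mean of the 3 WT libraries (x axis) for the 20 genes (y axis), with WT grey, ect1Δ pct1Δ orange and cpt1Δ ept1Δ blue. The deletion libraries of YDL057W lie to the right of 1.5, those of ZRT1 lie left of -0.5, and for YGR201C and STF2 the cpt1Δ ept1Δ points lie among or near the WT points.

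The genes of phospholipid synthesis themselves did not pass the test. None of the 8 measured genes that remain around the Kennedy pathway was called, and their median log2 fold change was -0.02. The largest was -0.15 ± 0.07 (SE, adjusted p = 0.722) for EKI1, the ethanolamine kinase. CKI1, the choline kinase, was at 0.03 and HNM1, the choline transporter, at -0.01. PAH1, the phosphatidate phosphatase that makes diacylglycerol, was at -0.09, and DGK1, the diacylglycerol kinase that opposes it, at 0.02. NTE1 and SPO14, which encode phospholipases acting on phosphatidylcholine, were at -0.09 and -0.03, and DPL1, which yields phosphoethanolamine from sphingoid bases, was at 0.02.

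The CDP-diacylglycerol route gave the same picture, with 0 of 11 genes called and a median log2 fold change of 0.03. PSD2, a phosphatidylserine decarboxylase, had -0.10 ± 0.06 (adjusted p = 0.886) and PIS1, the phosphatidylinositol synthase, 0.09 ± 0.06 (adjusted p = 0.886). CHO1, the phosphatidylserine synthase, was at 0.03, PSD1 at -0.03, and the methyltransferase genes CHO2 and OPI3 at -0.01 and 0.04. CDS1, which makes CDP-diacylglycerol, was at -0.06 and its mitochondrial counterpart TAM41 at 0.09. Of the cardiolipin branch, PGS1 was at 0.09, GEP4 at 0.02 and CRD1 at 0.08. The 11 genes of inositol and Ino2, Ino4 and Opi1 control, the circuit that sets transcription of phospholipid genes, also held no called gene: INO1, the inositol-3-phosphate synthase, had -0.24 ± 0.16 (adjusted p = 0.901), and SIN3, part of a histone deacetylase complex, -0.14 ± 0.06 (adjusted p = 0.688).

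Of fatty acid and ester metabolism, 2 genes rose. EEB1 encodes an enzyme that makes medium-chain fatty acid ethyl esters. Its level was 511, 562 and 561 CPM in WT, 860.3, 777 and 762 in ect1Δ pct1Δ, with 657, 706 and 753 in cpt1Δ ept1Δ. Every deletion library was above every WT library, and the pooled change was 0.47 ± 0.06 on the log2 scale (1.38-fold, adjusted p = 1.72e-04). EEB1 also passed in each strain alone (0.56 and 0.38). The other 5 measured ester genes were not called, among them EHT1, the paralogous ester synthase, at 0.08 (adjusted p = 0.856). EHT1 measured 397 to 408 CPM in WT and 416 to 437 in the deletion libraries, without overlap. Of the 6 ester genes, the deletion libraries lay above all WT libraries in 2 and below them in 1, against 3.09% of all genes either way.

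FAA1 encodes the main long-chain acyl-CoA synthetase, which activates fatty acids taken up or released in the cell. It measured 256, 264 and 239 CPM in WT, 336, 304 and 308 in ect1Δ pct1Δ, with 299, 294 and 309 in cpt1Δ ept1Δ. Again the groups did not overlap, and FAA1 rose by 0.28 ± 0.05 (1.22-fold, adjusted p = 0.0103), with an adjusted p of 0.058 when WT replicate 1 was left out. The other 17 genes of fatty acid synthesis and activation were not called, and the list's median was 0.00. The 20 genes of phosphatidate and storage lipid metabolism held no called gene, with 0.19 ± 0.08 (adjusted p = 0.641) for GPT2, a glycerol-3-phosphate acyltransferase, and 0.13 ± 0.06 (adjusted p = 0.697) for LRO1, which makes triacylglycerol from phospholipid.

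ZRT1 fell most among the protein-coding genes moved the same way. It encodes the high-affinity zinc transporter of the plasma membrane, and its transcription is switched on by the zinc-sensing factor Zap1 when zinc runs low. Its level was 78.9, 87.4 and 83.2 CPM in WT, 43.7, 47.6 and 42.8 in ect1Δ pct1Δ, with 30.7, 46.5 and 52.5 in cpt1Δ ept1Δ. The highest deletion library was well below the lowest WT library. The pooled change of -0.90 ± 0.11 left 53.5% of the WT level (adjusted p = 1.07e-04), and ZRT1 passed in each strain alone (-0.88 and -0.92). The strains differed by -0.04 (95% interval -0.32 to 0.23).

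ZRT1 was the only called gene of 20 measured zinc-regulated genes, whose median was -0.02. ZAP1 itself was at -0.12, ZRT3, the vacuolar zinc exporter, at -0.09 and FET4, a low-affinity metal transporter, at 0.15 (adjusted p = 0.580 for FET4). The promoter of ZRT1 is shown because it holds, among the genes that fell, the only match to the centre of the Zap1 element, CCTTNAAGG. The letters, searched on both strands of the 300 bases before the start codon, were found in 0.485% of 5976 such promoters and in 4 of 20 of the zinc list. The sequence is from the reference genome build R64 (RefSeq), plus strand, chrVII:20678-20977, with this match and a CCAAT, the letters bound by the Hap complex, in capitals.

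ZRT1 promoter: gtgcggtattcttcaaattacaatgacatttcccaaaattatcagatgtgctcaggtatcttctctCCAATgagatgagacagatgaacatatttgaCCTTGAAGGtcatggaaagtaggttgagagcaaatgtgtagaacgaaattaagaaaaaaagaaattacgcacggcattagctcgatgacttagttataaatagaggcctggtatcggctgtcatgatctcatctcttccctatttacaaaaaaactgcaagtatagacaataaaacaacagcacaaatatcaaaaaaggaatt

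KAR2 was the other gene that fell in both strains by their own tests. It encodes the Hsp70 chaperone of the endoplasmic reticulum (BiP), which helps secretory proteins fold and is a standard reporter of the unfolded protein response. Its level was 630.4, 655 and 663 CPM in WT, 525, 564 and 534 in ect1Δ pct1Δ, with 515, 489.6 and 525 in cpt1Δ ept1Δ. No deletion library reached the lowest WT library, and the pooled change was -0.31 ± 0.05 (80.9% of WT, adjusted p = 1.76e-03), with -0.26 in ect1Δ pct1Δ and -0.35 in cpt1Δ ept1Δ.

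Of 30 measured genes of the unfolded protein response and endoplasmic reticulum folding, KAR2 was the only called gene, but 27 had a negative value, with a median of -0.06 (-0.06 in each strain), against -0.00055 over all genes. HAC1, the transcription factor of the response, had -0.16 ± 0.05 (adjusted p = 0.297), and ERO1, the oxidase that drives disulfide formation, -0.17 ± 0.05 (adjusted p = 0.364). The mean log2 level of the list, relative to the WT mean, was -0.02 to 0.03 in the WT libraries and -0.09 to -0.05 in the 6 deletion libraries, which did not overlap. The KAR2 promoter is shown because it holds CAGCNTG, the letters of a Hac1 element, in capitals. These letters occur in 6.34% of all promoters and in 3 of 30 of this list, on both strands. The sequence is from build R64 (RefSeq), plus strand, chrX:381027-381326.

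KAR2 promoter: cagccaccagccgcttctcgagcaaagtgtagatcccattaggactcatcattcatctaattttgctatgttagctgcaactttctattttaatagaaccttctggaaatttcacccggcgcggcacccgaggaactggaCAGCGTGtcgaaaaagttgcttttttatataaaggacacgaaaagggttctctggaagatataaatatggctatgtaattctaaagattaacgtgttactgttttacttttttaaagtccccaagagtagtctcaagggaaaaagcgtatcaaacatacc

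**Figure D2:**
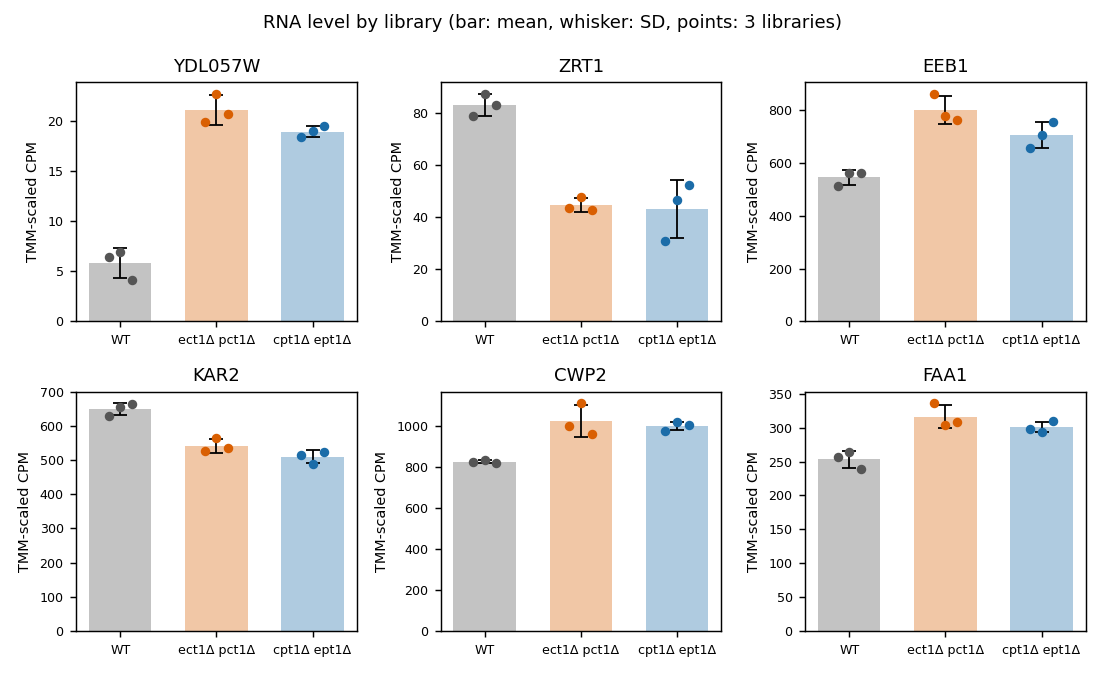
CPM scaled by TMM factors (y axis, from 0) in each library of WT, ect1Δ pct1Δ and cpt1Δ ept1Δ for YDL057W, ZRT1, EEB1, KAR2, CWP2 and FAA1; points are libraries, bars the mean of 3 and whiskers the SD. In all 6 genes both deletion strains lie on the same side of WT, and the widest spread is that of ZRT1 in cpt1Δ ept1Δ (30.7 to 52.5 CPM).

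Of the cell wall genes, CWP2 and CCW22 rose. CWP2 encodes an abundant mannoprotein attached to the wall glucan. It measured 823, 833 and 819.8 CPM in WT, 998, 1112 and 962 in ect1Δ pct1Δ, with 978, 1019 and 1004 in cpt1Δ ept1Δ. All deletion libraries lay above WT, the WT spread was narrow, and the pooled change was 0.29 ± 0.05 (1.23-fold, adjusted p = 7.31e-03), nearly the same in the strains (0.31 and 0.28). CWP2 kept its call when any single library was left out.

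CCW22, a relative of the wall protein gene CCW12, and YDR133C share 227 bases on the same strand of chromosome IV, so a read in the shared stretch cannot be assigned to either. YDR133C measured 54.3 to 60.0 CPM in WT, against 65.9 to 74.0 in ect1Δ pct1Δ, with 74.7 to 81.1 in cpt1Δ ept1Δ (0.36 ± 0.06, adjusted p = 9.05e-03, and 0.0714 without WT replicate 2). CCW22 measured 68.8 to 92.7 CPM in WT, against 93.4 to 95.4 in ect1Δ pct1Δ, with 108 to 121 in cpt1Δ ept1Δ (0.36 ± 0.07, adjusted p = 0.0416), and its call was lost with 7 of the 9 single libraries left out, with an adjusted p of up to 0.219. The call was kept only without WT replicate 1 or cpt1Δ ept1Δ replicate 3. CCW12, which matches 82.2% of the CCW22 bases, was at 0.04. The other 33 wall genes were not called, and the median of the 35 was -0.01.

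The nucleotide pathways held 1 gene that rose and 1 that fell. IMD2 encodes IMP dehydrogenase, the first step toward GTP. Its level was 90.9, 90.7 and 87.0 CPM in WT, 155, 157 and 152 in ect1Δ pct1Δ, with 111, 104 and 107 in cpt1Δ ept1Δ. The groups formed 3 separate levels, with WT lowest and ect1Δ pct1Δ highest, and the pooled change was 0.52 ± 0.05 (1.44-fold, adjusted p = 8.60e-06). In cpt1Δ ept1Δ alone the value was 0.26 ± 0.06 and was not called (adjusted p = 0.157). IMD2 shares 96.7% of 1212 aligned bases with IMD1 and 89.0% with IMD3, so reads may be split between them. IMD1, with only 1.49 to 2.85 CPM in WT, was at -0.80 ± 0.37 (adjusted p = 0.730) and IMD3 at 0.04 (adjusted p = 0.954).

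URA1, dihydroorotate dehydrogenase of pyrimidine synthesis, which also leads to the CTP used by Ect1 and Pct1, measured 414 to 428 CPM in WT, against 343 to 360.3 in ect1Δ pct1Δ, with 370.1 to 383 in cpt1Δ ept1Δ. The groups did not overlap, and URA1 fell by 0.22 on the log2 scale (SE 0.04, adjusted p = 0.0240). The call was lost with 5 single libraries left out (WT replicates 1 and 2, ect1Δ pct1Δ replicate 1, cpt1Δ ept1Δ replicates 2 and 3), with an adjusted p of up to 0.168. None of the other 14 pyrimidine and CTP genes was called, and the list's median was -0.05. The 13 purine genes held no called gene, with a median of -0.06, and ADE6 and SHM2 were at -0.10 (adjusted p = 0.694) and -0.11 (adjusted p = 0.731).

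Among genes of carbon use, HXT4 fell while TDH1 and CYB2 rose. HXT4, a glucose transporter, measured 350.4 to 364 CPM in WT, against 279 to 309.8 in ect1Δ pct1Δ, with 296 to 316 in cpt1Δ ept1Δ, so that all deletion libraries were below WT (-0.23 ± 0.05, adjusted p = 0.0321). Its call was lost with 6 single libraries left out (WT replicates 1 and 2, ect1Δ pct1Δ replicate 1 and each cpt1Δ ept1Δ library), with an adjusted p of up to 0.243. HXT6, with 83.3% identical bases but only 1.59 to 2.18 CPM in WT, was at 0.56 ± 0.26 (adjusted p = 0.731). The abundant near copy HXT3 (81.0% identical, mean of 1819 CPM in WT) was at 0.13 ± 0.05 (adjusted p = 0.476), with every deletion library above WT. None of the other 11 measured transporters was called.

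TDH1, an isozyme of glyceraldehyde-3-phosphate dehydrogenase made mainly by cells leaving log phase, measured 209, 244 and 238 CPM in WT, 317, 374 and 359.8 in ect1Δ pct1Δ, with 235, 288 and 334 in cpt1Δ ept1Δ. The lowest cpt1Δ ept1Δ library lay within the WT range. TDH1 rose by 0.46 ± 0.09 (adjusted p = 0.0148), with an adjusted p of up to 0.168 without WT replicate 1 or ect1Δ pct1Δ replicate 3. The near copies TDH2 (90.2% identical) and TDH3 (88.9%) were at -0.09 and -0.04, and TDH1 was the only called gene of 26 in glycolysis and fermentation. CYB2, the mitochondrial lactate dehydrogenase that feeds electrons to cytochrome c, measured 43.4 to 48.6 CPM in WT, against 58.2 to 65.03 in ect1Δ pct1Δ, with 54.8 to 72.8 in cpt1Δ ept1Δ. These groups did not overlap, and CYB2 rose by 0.44 ± 0.09 (adjusted p = 0.0285), though neither strain passed alone and the call was lost without WT replicate 1, 2 or 3 or ect1Δ pct1Δ replicate 1 or 2 (adjusted p of up to 0.204).

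The genes of oxidative phosphorylation shared a small shift in which no single gene passed. All 42 measured genes, which encode subunits and carriers of the respiratory chain and ATP synthase, had a positive pooled value, from 0.03 to 0.31, with a median of 0.14 (0.16 in ect1Δ pct1Δ and 0.11 in cpt1Δ ept1Δ), where 49.66% of all genes were positive. None was called, and 24 of 42 had an unadjusted edgeR p below 0.05, against 6.53% of all genes. DESeq2 called RIP1, and edgeR without WT replicate 3 called COX12, a subunit of complex IV, and ATP20, a subunit of ATP synthase. RIP1, the iron-sulfur protein of complex III, measured 293 to 299 CPM in WT, against 328 to 353 in ect1Δ pct1Δ, with 331 to 333 in cpt1Δ ept1Δ (0.18 ± 0.04, adjusted p = 0.136). COR1, a core subunit of the same complex, was at 0.16 ± 0.05 (adjusted p = 0.303).

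The mean log2 level of the 42 genes relative to the WT mean was -0.05 to 0.06 in the WT libraries, 0.11 to 0.21 in ect1Δ pct1Δ, with 0.08 to 0.17 in cpt1Δ ept1Δ, without overlap. The highest WT library is replicate 3, which stands apart on the largest axis. Without it the median was 0.15, and under the 18 refits tried it lay between 0.11 and 0.15, with 41 or 42 genes positive. The 21 genes of the TCA and glyoxylate cycles had a median of 0.07 with 17 positive, but 0.11 without WT replicate 1 and 0.05 without WT replicate 3. They were led by CIT1 and CIT2, citrate synthases, at 0.23 ± 0.06 (adjusted p = 0.183) and 0.18 ± 0.05 (adjusted p = 0.305); their WT libraries, -0.05 to 0.05, overlapped the deletion libraries, 0.04 to 0.12. Of the regulators, HAP3, a subunit of the Hap complex that activates respiratory genes, was at 0.31 ± 0.10 (adjusted p = 0.386) and MTH1, a repressor of glucose transporter genes, at 0.32 ± 0.11 (adjusted p = 0.428).

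Of the genes of stress and of growth past log phase, HSP30, FMP48 and STF2 rose, and STF2 differed between the strains by test. HSP30, a plasma membrane protein that restrains the proton pump Pma1 under stress, measured 72.5, 85.1 and 65.4 CPM in WT, 112, 114 and 121 in ect1Δ pct1Δ, with 89.0, 88.6 and 90.5 in cpt1Δ ept1Δ. The cpt1Δ ept1Δ libraries lay just above the highest WT library and well below ect1Δ pct1Δ. The pooled change was 0.45 ± 0.07 (1.37-fold, adjusted p = 2.38e-03), from 0.64 in ect1Δ pct1Δ and 0.27 in cpt1Δ ept1Δ. FMP48, a putative kinase linked to mitochondria, measured 24.5, 25.1 and 19.4 CPM in WT, 38.9, 35.7 and 34.9 in ect1Δ pct1Δ, with 29.2, 28.9 and 30.7 in cpt1Δ ept1Δ. It rose by 0.50 ± 0.09 (1.42-fold, adjusted p = 0.0146), and without WT replicate 3, the lowest library, the adjusted p was 0.0758.

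STF2, a small protein of desiccation tolerance that binds the mitochondrial ATP synthase, measured 39.7, 45.3 and 36.5 CPM in WT, 68.5, 72.2 and 70.6 in ect1Δ pct1Δ, with 42.0, 40.2 and 46.2 in cpt1Δ ept1Δ. The cpt1Δ ept1Δ libraries overlapped WT (0.08 ± 0.09, adjusted p = 1.00), and the pooled value of 0.44 ± 0.08 (adjusted p = 7.50e-03, and 0.0774 without WT replicate 1) came from ect1Δ pct1Δ (0.80). STF2 lies 169 bases from ECT1, the gene deleted in that strain, on the opposite strand.

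In the list of general stress genes, named here after the factor Msn2, 28 of 35 were positive. The median was 0.13 (0.19 in ect1Δ pct1Δ and 0.08 in cpt1Δ ept1Δ), with HSP30 the only called gene. Whether Msn2 or its relative Msn4 controls HSP30 was not tested. Over the stationary phase markers, which are RNAs of cells that have left log phase, 11 of 14 tested were positive, and STF2 and FMP48 were called. Their median was 0.27, with 0.32 in ect1Δ pct1Δ and 0.12 in cpt1Δ ept1Δ. The summed level of all 17 such markers was 268 to 282 CPM in WT, against 327 to 335 in ect1Δ pct1Δ, with 283 to 309.5 in cpt1Δ ept1Δ, and none of the 17 was at 0 in every library. The median of the 14 was 0.15 without WT replicate 2 and 0.16 without WT replicate 3. The summed markers were higher in every deletion library than in WT, as were HSP30 and the mean of the respiratory genes. The margin was narrow for cpt1Δ ept1Δ, whose lowest sum was 283.1 CPM against a WT maximum of 281.6. STF2 and FMP48 are themselves part of the sum, so their rise is not separate from it. The marker list was also written with earlier results of these data known. STF2 averaged 40.5 CPM over WT libraries, with 70.4 for ect1Δ pct1Δ and 42.8 for cpt1Δ ept1Δ. FMP48 averaged 23.0 CPM over WT libraries, with 36.5 for ect1Δ pct1Δ and 29.6 for cpt1Δ ept1Δ. The sum without these genes was not tested, nor was the part of growth phase in any of these results.

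**Figure D3:**
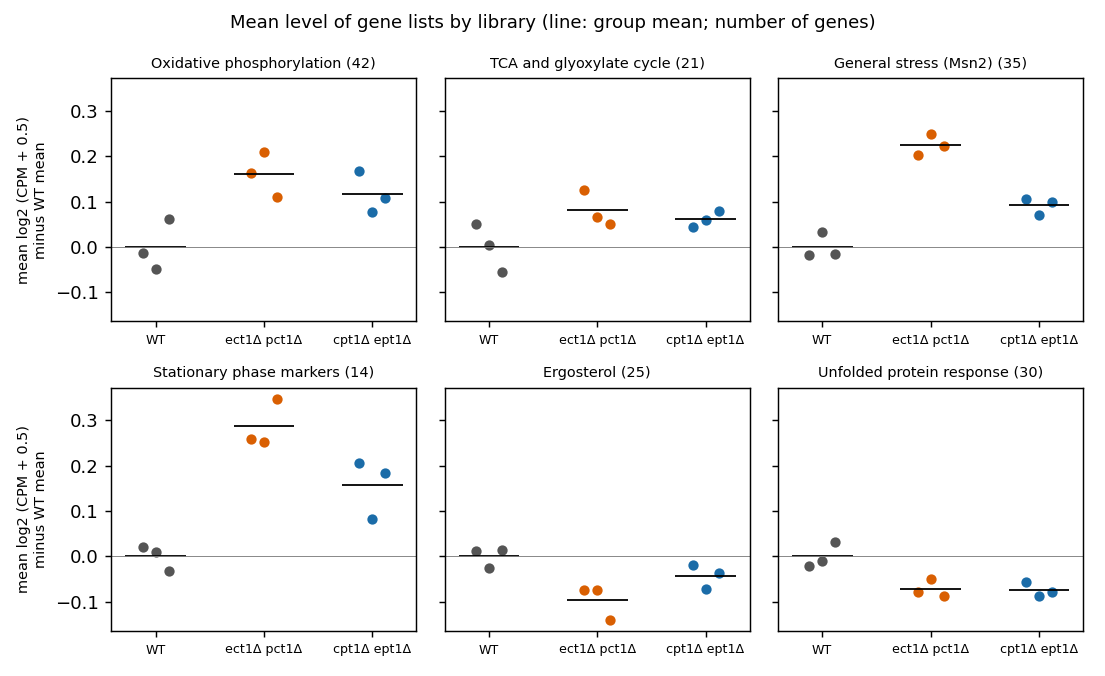
Mean log2 (CPM + 0.5) of the tested genes of 6 lists in each library, relative to the mean of the WT libraries (y axis); points are libraries, lines group means, and the number of genes is in brackets. The deletion libraries lie above WT for oxidative phosphorylation, general stress and stationary phase markers and below WT for the unfolded protein response, and the ect1Δ pct1Δ libraries lie at 0.25 to 0.35 for the stationary phase markers and 0.20 to 0.25 for stress.

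YDL057W had the largest change. Its role is not annotated in the sources used here. It is a weakly expressed gene, with 6.44, 6.98 and 4.15 CPM in WT, 19.9, 22.8 and 20.8 in ect1Δ pct1Δ, with 18.4, 19.0 and 19.5 in cpt1Δ ept1Δ. The lowest deletion library was far above the highest WT library. The pooled change was 1.75 ± 0.14 (3.37-fold, adjusted p = 5.83e-07), 1.84 and 1.67 in the strains, which differed by -0.16 (95% interval -0.44 to 0.11). The genes on either side, USO1 and MBP1, were at -0.03 and -0.14 and were not called. Its promoter is shown as that of the gene with the largest change. The sequence is from build R64 (RefSeq), plus strand, chrIV:351134-351433, and holds none of the 6 motifs searched, so it has no capitals.

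YDL057W promoter: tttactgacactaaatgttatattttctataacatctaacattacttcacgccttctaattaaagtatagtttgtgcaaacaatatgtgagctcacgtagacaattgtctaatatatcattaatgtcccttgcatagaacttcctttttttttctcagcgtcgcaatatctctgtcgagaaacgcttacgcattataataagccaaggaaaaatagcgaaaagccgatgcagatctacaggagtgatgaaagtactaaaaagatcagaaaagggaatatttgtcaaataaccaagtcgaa

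YGR201C, which has no standard name in the table, measured 10.2, 15.1 and 15.9 CPM in WT, 37.9, 45.9 and 44.7 in ect1Δ pct1Δ, with 14.3, 14.6 and 14.4 in cpt1Δ ept1Δ. The cpt1Δ ept1Δ libraries lay within the WT range, and the pooled value of 0.90 ± 0.13 (adjusted p = 1.54e-03) came from ect1Δ pct1Δ (1.69, against 0.12). This gene lies 276 bases from PCT1 on the same strand. Of the 11 tested genes beside the 4 deleted loci, YGR201C and STF2 were the only called genes, and both flank loci deleted in ect1Δ pct1Δ.

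The remaining genes were COS1, YER053C-A and RDN5-1. COS1, of a subtelomeric family of membrane proteins with copies up to 96.2% identical, measured 38.5 to 39.8 CPM in WT, against 47.2 to 55.1 in ect1Δ pct1Δ, with 47.9 to 50.7 in cpt1Δ ept1Δ (0.34 ± 0.07, adjusted p = 0.0429). Neither strain passed alone, and the call was lost with 8 of the 9 single libraries left out (every library but ect1Δ pct1Δ replicate 1), with an adjusted p of up to 0.277. YER053C-A, a short open reading frame, measured 149.5 to 159 CPM in WT, against 182 to 204 in ect1Δ pct1Δ, with 185 to 194 in cpt1Δ ept1Δ, without overlap (0.30 ± 0.05, adjusted p = 8.13e-03, and 0.113 without WT replicate 1).

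RDN5-1, a 5S ribosomal RNA gene, fell from 9.97, 13.3 and 11.6 CPM in WT to 4.20, 4.90 and 4.89 in ect1Δ pct1Δ, with 7.29, 7.08 and 8.77 in cpt1Δ ept1Δ (-0.93 ± 0.15, adjusted p = 4.42e-03). All deletion libraries were below WT. The gene has identical copies and a transcript with no poly(A) tail, which oligo(dT) selection is meant to remove, and the part of that step in the difference was not tested. Mitochondrial ribosomal RNA, which the selection also acts on, varied from 2.33 to 193 CPM between libraries, with the highest in cpt1Δ ept1Δ replicate 3 and 5.98 to 34.2 in WT.

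**Figure D4:**
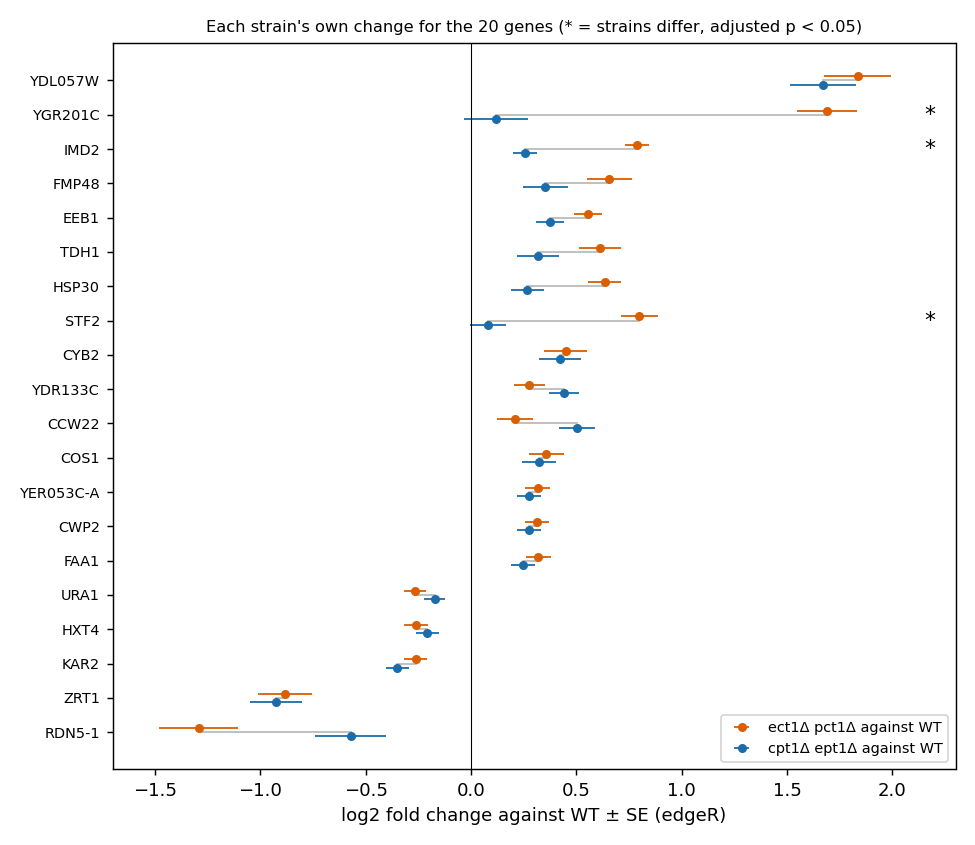
Log2 fold change against WT with its SE (x axis, edgeR) in ect1Δ pct1Δ (orange) and cpt1Δ ept1Δ (blue) for the 20 genes, joined by a grey line; an asterisk marks genes whose change differed between the strains. The asterisks stand at YGR201C, IMD2 and STF2, and the values of YDL057W and ZRT1 lie within about an SE of each other.

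The strains were compared gene by gene to see how evenly they carried the pooled changes. Both were set against the same WT libraries, so their values are not independent. The ect1Δ pct1Δ strain had 26 genes called against WT (0.428%) and cpt1Δ ept1Δ 6 (0.0987%). These counts fell to 15 without WT replicate 1 and to 2 without cpt1Δ ept1Δ replicate 2, and DESeq2 called 14 in cpt1Δ ept1Δ. Of the 20 genes, 4 were called in both strains (YDL057W, ZRT1, KAR2 and EEB1), 12 in ect1Δ pct1Δ only, 2 in cpt1Δ ept1Δ only (CCW22 and YDR133C) and 2 in neither (CYB2 and COS1). The change was larger in ect1Δ pct1Δ for 16 genes and larger in cpt1Δ ept1Δ for YDR133C, CCW22, KAR2 and ZRT1.

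The test of the difference between the strains called 8 of all genes (0.132%), among them 3 of the 20: YGR201C (-1.57, cpt1Δ ept1Δ minus ect1Δ pct1Δ, adjusted p = 1.27e-06), IMD2 (-0.53, adjusted p = 2.25e-05) and STF2 (-0.72, adjusted p = 6.05e-05). The other 17 did not pass, which does not show that the strains were alike: HSP30 differed by -0.37 (95% interval -0.53 to -0.21, adjusted p = 0.0573) and CCW22 by 0.29 (0.12 to 0.47, adjusted p = 0.376). For EEB1 the difference was -0.18 (-0.32 to -0.04), for KAR2 -0.09 (-0.20 to 0.03), for CWP2 -0.03 (-0.15 to 0.09) and for FAA1 -0.07 (-0.19 to 0.05).

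The pooled threshold has close neighbours on the other side. The genes just outside it, each higher in the pool, were YNL134C (0.21, adjusted p = 0.0735), the eisosome protein gene NCE102 (0.23, 0.0783), YRO2 (0.50, 0.0792), the wall stress sensor gene WSC4 (0.30, 0.0806) and YGR035C (0.80, 0.0957). Just inside it lay COS1 (0.34, 0.0429) and CCW22 (0.36, 0.0416).

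Across the 45 gene lists, 12 held a gene called with the same sign in both strains, and the arsenic resistance list held ARR3, called with opposite signs. The median lay within 0.10 of zero on the log2 scale in 40 lists, and in 39 to 41 with single libraries left out. Such small medians are not firm in sign: in 22 lists the sign changed when some single library was left out, both phospholipid routes among them (Kennedy 0.00 and CDP-diacylglycerol -0.02 without WT replicate 1). The lists with larger medians were the stationary phase, oxidative phosphorylation and Msn2 lists, the 4 MATalpha markers (-0.12, none called, and -0.06 without WT replicate 1) and the 5 arsenic resistance genes (-0.32), where ARR3, the arsenite exporter, was at -2.94 in ect1Δ pct1Δ and 0.29 in cpt1Δ ept1Δ. In the ergosterol pathway 24 of 25 genes were negative with a median of -0.08 (-0.10 and -0.04 in the strains) and none was called. Its leading genes were ERG3, the sterol desaturase, at -0.12 ± 0.05 (adjusted p = 0.665) and ERG1, the squalene epoxidase, at -0.11 ± 0.05 (adjusted p = 0.688). By library, the mean level of this list was -0.03 to 0.01 in WT, -0.14 to -0.07 in ect1Δ pct1Δ, with -0.07 to -0.02 in cpt1Δ ept1Δ, where 1 library lay within the WT range.

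**Figure D5:**
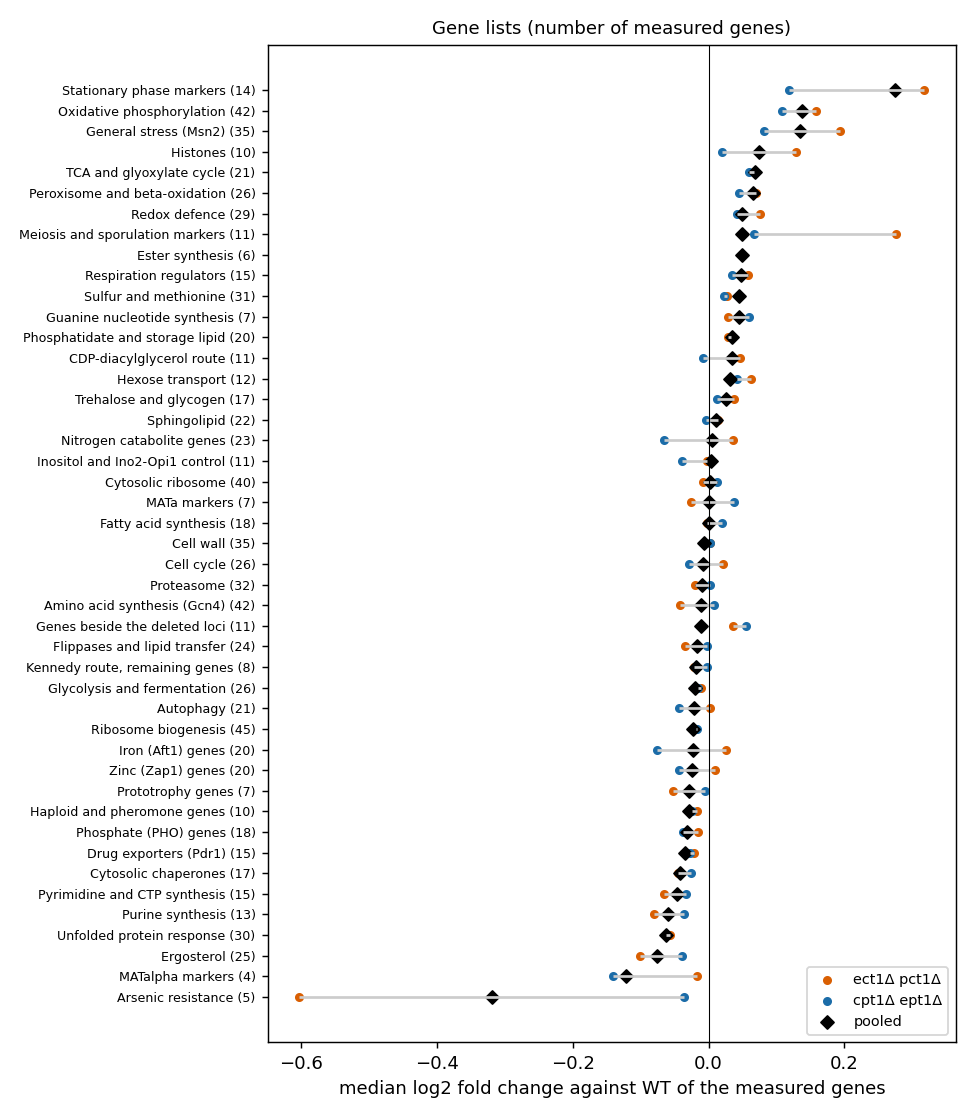
Median log2 fold change against WT (x axis) of the tested genes of 45 lists (y axis, number of genes in brackets) for the pool (black diamonds), ect1Δ pct1Δ (orange) and cpt1Δ ept1Δ (blue). Stationary phase markers lie highest (0.27), arsenic resistance lowest (-0.32), and both phospholipid routes lie near zero.

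Promoter letters were counted for the 17 moved genes annotated as protein-coding at the same position in RefSeq, 13 higher and 4 lower. Both strands of 300 bases were searched. YDR133C, CCW22 and RDN5-1 were left out. CCCCT, the Msn2 element, was present in 7 of the 13 higher genes (53.8%; YGR201C, TDH1, STF2, CYB2, COS1, YER053C-A and FAA1) and 0 of the 4 lower ones, against 22.2% of all promoters and 68.6% of the Msn2 list. HSP30, the only called gene of that list, held no CCCCT in the searched bases. CCAAT, the Hap element, was in 6 of 13, against 41.8% of all promoters. It was in 36 of 44 promoters of the oxidative phosphorylation list (81.8%), counted without the filter on low counts. CATGTG, the core of the element through which Ino2 and Ino4 act on phospholipid genes, was in 1 of 13 (FMP48), against 7.15% of all. TCGTATA, a core of the sterol factor Upc2, was in FMP48 and CWP2, against 4.59%. A match describes the sequence and does not show a bound site.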

How the data were processed

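RNA of 9 libraries was made into cDNA with random primers after oligo(dT) selection, per the labels' protocols. The authors deposited, per gene and library, a raw count (whole numbers) and an FPKM value, which equals count scaled by gene length and library total in 100% of 64098 values checked (within 0.0051 plus 0.05%). HISAT2 2.2.1, HTSeq 0.6.1 and build R64 are named per the submitters' processing notes, and their settings, strand included, are not given in the sources used here. Another 6 columns matched no sample and were not used, and 4 lines without values were skipped.

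Of 7122 genes, edgeR 4.0.16 (R 4.3.3) tested the 6083 that passed filterByExpr by group, on counts with TMM factors, in 1 quasi-likelihood fit of 3 group means (biological coefficient of variation 6.24%). The pooled contrast gave each strain a weight of 0.5. The two-sided p-values were given Benjamini-Hochberg adjustment over all genes tested and called below 0.05; the 4 deleted genes were then dropped from counts. The SE is the log2 fold change over the square root of F. CPM values are TMM-scaled. Alternatives used DESeq2 1.42.0, limma 3.58.1 on log2 (FPKM + 0.5) and other scalings, filters and left-out libraries. The 45 gene lists had 916 entries, 912 of which matched a gene. Copies were matches of at least 80% identity over 100 bases. Genes were named by rank among those moved with no overlapping library (up to 12 each way), by the smallest p in each list, by being in either phospholipid route or by lying beside a deleted locus; near copies of these, neighbours, ZAP1, ZRT3 and FET4, and genes just outside the threshold were named after their values were seen. The members and lists were chosen with earlier results of these data known. The count test was tested first on simulated data with 1.5-fold and 2-fold changes, the same in both strains. Smaller changes, and changes in 1 strain only, were not simulated.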

Additional observations from a re-analysis of the deposited data

Results flagged for a closer look

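The test of the difference between the strains flagged 5 genes of the pooled comparison, given as the log2 difference of cpt1Δ ept1Δ minus ect1Δ pct1Δ. It was 3.23 for ARR3 (95% interval 2.60 to 3.87) and 1.67 for YBR242W, which were lower in ect1Δ pct1Δ and near WT in cpt1Δ ept1Δ. It was -1.57 for YGR201C, -0.72 for STF2 and -0.53 for IMD2, which were higher in ect1Δ pct1Δ. YGR201C and STF2 lie beside loci deleted in ect1Δ pct1Δ alone, and the part of this position in their values was not tested. Groups of 3 libraries are too small for a check of single outlying libraries.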

How the results depend on the processing

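Of the 20 genes, none changed sign in any refit, and 9 kept their call with each single library left out. Of those, 5 (YDL057W, ZRT1, KAR2, CWP2 and EEB1) also kept it under 8 other settings. A fit with the 6 deletion libraries as 1 group called 12 genes (8 higher). A joint test, which adjusted the larger of the edgeR p-values of the strains over all genes, called 3 (2 higher, 1 lower): YDL057W, ZRT1 and EEB1. KAR2, which was called in each strain by its own test, did not pass this joint test (adjusted p = 0.172). DESeq2 called 27, with all 20 among them, and 14 in cpt1Δ ept1Δ; limma on FPKM called 14, 13 of them among the 20. Leaving out 1 library gave 14 to 26 genes (9 to 18 higher, 3 to 8 lower), 15 to 38 in ect1Δ pct1Δ, 2 to 7 in cpt1Δ ept1Δ and 6 to 9 between strains. Without WT replicate 3 and ect1Δ pct1Δ replicate 2 together, chosen after seeing the data, 9 genes were lower, 14 were called in cpt1Δ ept1Δ and 19 between strains; without WT replicate 3 and ect1Δ pct1Δ replicate 1, also added, it was 31 genes, 22 higher and 9 lower, and 46 in ect1Δ pct1Δ. The cause of these shifts was not tested. Replicate numbers did not pair the samples: deviations of same-numbered libraries correlated at -0.27 to 0.26, and a replicate block gave 19 genes, 18 of them among the 20, with 21, 5 and 7 called in ect1Δ pct1Δ, cpt1Δ ept1Δ and between strains. The filter on low counts left 1039 genes untested, and 397 genes had an unadjusted edgeR p below 0.05.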

Other observations

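Other gene groups gave small values in which no gene passed the pooled test. Histone genes were positive in 10 of 10 (median 0.07; 0.13 in ect1Δ pct1Δ and 0.02 in cpt1Δ ept1Δ), with none called and 0 of 10 with libraries apart from WT. Their median was 0.04 without WT replicate 1 or 2 and 0.13 without WT replicate 3, where HHF2, a histone H4 gene, was called. Of 26 peroxisome and beta-oxidation genes 21 were positive (median 0.07, none called), led by POX1, the acyl-CoA oxidase, at 0.36 ± 0.14 (adjusted p = 0.632), and the mean level of this list was -0.0019 to 0.0033 in WT and 0.06 to 0.10 in the deletion libraries. Without WT replicate 3 its median was 0.04. The redox defence list had 21 of 29 positive (median 0.05, none called), with GRX2, a glutaredoxin, at 0.17 ± 0.07 (adjusted p = 0.580). In sphingolipid metabolism the ceramidase genes YPC1 and YDC1 were at 0.22 ± 0.06 (adjusted p = 0.305) and 0.19 ± 0.06 (adjusted p = 0.365), among 22 genes of which none was called in the pool; YPC1 was called in ect1Δ pct1Δ alone (0.34, adjusted p = 0.0466). Genes of growth capacity had medians near zero: 0.00 for 40 cytosolic ribosomal protein genes, -0.02 for 45 ribosome biogenesis genes and -0.01 for 32 proteasome genes, none called. The ribosomal protein median ran from -0.03 to 0.06 with single libraries left out, and the mean level of that list was -0.08 to 0.13 in the WT libraries.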
